A study of Homo sapiens with 3 samples.

Results

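The genes described here drive or restrain the passage of a cell from G1 into S phase, and their mRNA levels were followed in HCT116 cells after silencing of *HOXA5* short RNA. They are the D-type cyclins *CCND1* and *CCND3*, the E-type cyclins *CCNE1* and *CCNE2*, the kinases *CDK2*, *CDK4* and *CDK6*, the kinase inhibitor *CDKN1B*, and the transcription factors *E2F1* and *MYC*. They were taken as a set named by function, through every gene probe whose transcript accession belongs to 1 of them, which gave 12 probes for 10 genes among the 21612 genes named on the arrays. HCT116 cells are a long-established line grown from a human colon carcinoma, and *HOXA5* short RNA is a transcript of the *HOXA6*-*HOXA5* locus that skips the first exon of *HOXA5*. The cells received control siRNA, siRNA #7 or siRNA #8, the last 2 directed at *HOXA5* short RNA, and total RNA was taken after 48 h. Each condition was measured on 1 single-colour whole-genome array from 400 ng of RNA, so no difference between conditions has a replicate check, and the number of arrays limits the precision. Both silenced conditions carry the same genotype label, and both are compared with the same control array.

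In G1, mitogenic signals raise the D-type cyclins, which bind CDK4 and CDK6 and begin to phosphorylate the retinoblastoma protein. Release of E2F factors from that protein turns on the E-type cyclins and the genes of DNA replication, and cyclin E with CDK2 completes the step, while p27, the product of *CDKN1B*, holds CDK2 back. MYC is a growth-promoting transcription factor whose gene is a target of Wnt signaling in colon epithelium, as is *CCND1*, and *CCND1* is also a standard readout of the ERK pathway.

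The siRNAs are shown first because they overlap, so that they are not independent in sequence. In each, capitals mark the 17 bases that both share, and 4 bases in lower case belong to that siRNA alone.
siRNA #7: gagaAACUGAAAGACAACAUA
siRNA #8: AACUGAAAGACAACAUAggcg
Both lie across the exon junction of *HOXA5* short RNA, and siRNA #8 starts 4 bases further along the same target. The arrays were deposited under names that number the siRNAs otherwise than the sample labels do, and the labels were followed here.

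A level below is a scaled intensity, the background-subtracted intensity of a probe divided by the 75th percentile of all gene probes on its array, and a ratio is the log2 of the quotient of 2 such levels. The 75th percentile was 52.8 for the control, 42.1 for siRNA #7 and 42.8 for siRNA #8. Between 19066 and 20471 of 50599 gene probes were well above background on an array, and no spot was saturated. All 12 probes of the 10 genes were well above background on all 3 arrays and passed the filter on dim probes, which 12031 genes passed. Levels are compared between arrays for 1 probe and never between probes. The arrays hold 10 spots of the probe used for *CCND1*, *CDK2*, *CDKN1B*, *E2F1* and *MYC*, and 1 spot of the probe used for each of the other 5 genes. The error given with a ratio is its spot-to-spot SD, shortened to spot SD. Where a probe has 10 spots it rests on the SD of their mean, and otherwise on the SD of 1 spot. Errors of these 2 kinds are not alike in size. The spot SD covers printing and scanning only, and differences from culture to culture are not in it. Of 10 colon epithelial markers, 7 were well above background on all arrays, *EPCAM*, *KRT18* and *KRT19* among them, while *KRT20*, *VIL1* and *LGALS4* were not. Of 14 probed markers of blood cells, fibroblasts and endothelium, *CD68* and *COL1A1* were, at dim intensities of 8.89 to 48.1. The 1 *HOXA5* probe, the check on the target, had a log2 ratio of -0.36 in siRNA #7-treated cells and -0.23 in siRNA #8-treated cells. No spot SD was worked out for this probe, so neither value can be set against its error. Whether it reads *HOXA5* short RNA is not given in the sources used here.

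Of the D-type cyclins, *CCND1* was the gene of the set past 2-fold of control siRNA, with siRNA #8. The mean scaled intensity of *CCND1* was 14.7 in control cells, 17.0 after siRNA #7 and 6.95 after siRNA #8. Its 8 usable control spots ran from 13.5 to 15.9, its 10 spots with siRNA #7 from 16.0 to 18.1, and its 9 spots with siRNA #8 from 6.49 to 7.54. The 3 ranges did not overlap, with siRNA #8 far below the others. These levels put *CCND1* 2.12-fold below control siRNA with siRNA #8 (log2 ratio -1.08, spot SD 0.038) and 1.15-fold above it with siRNA #7 (log2 ratio 0.21, spot SD 0.034). Between the siRNAs the difference was 2.44-fold, with a log2 ratio of siRNA #8 to siRNA #7 of -1.29. Among all 12031 genes, the ratio of *CCND1* stood at the 2.3 percentile with siRNA #8 and at the 71.6 percentile with siRNA #7. The small excess with siRNA #7 came to -0.07 once ratios were scaled on the E1A spike-in controls, which are RNAs added in a known amount, and to -0.01 under normexp background correction, whereas the value with siRNA #8 stayed between -1.27 and -1.03 under all 10 alternatives.

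*CCND3*, the D-type cyclin that many blood and epithelial cells use beside cyclin D1, was read from 1 spot. Its scaled intensity was 6.46 in control cells, 5.51 after siRNA #7 and 4.50 after siRNA #8. It was thus highest with control siRNA and lowest with siRNA #8. Against the control the log2 ratio came to -0.52 with siRNA #8 (spot SD 0.18) and -0.23 with siRNA #7 (spot SD 0.16), the latter within 2 of these SDs of 0. Both ratios stayed negative under all 10 alternatives.

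**Figure D1:**
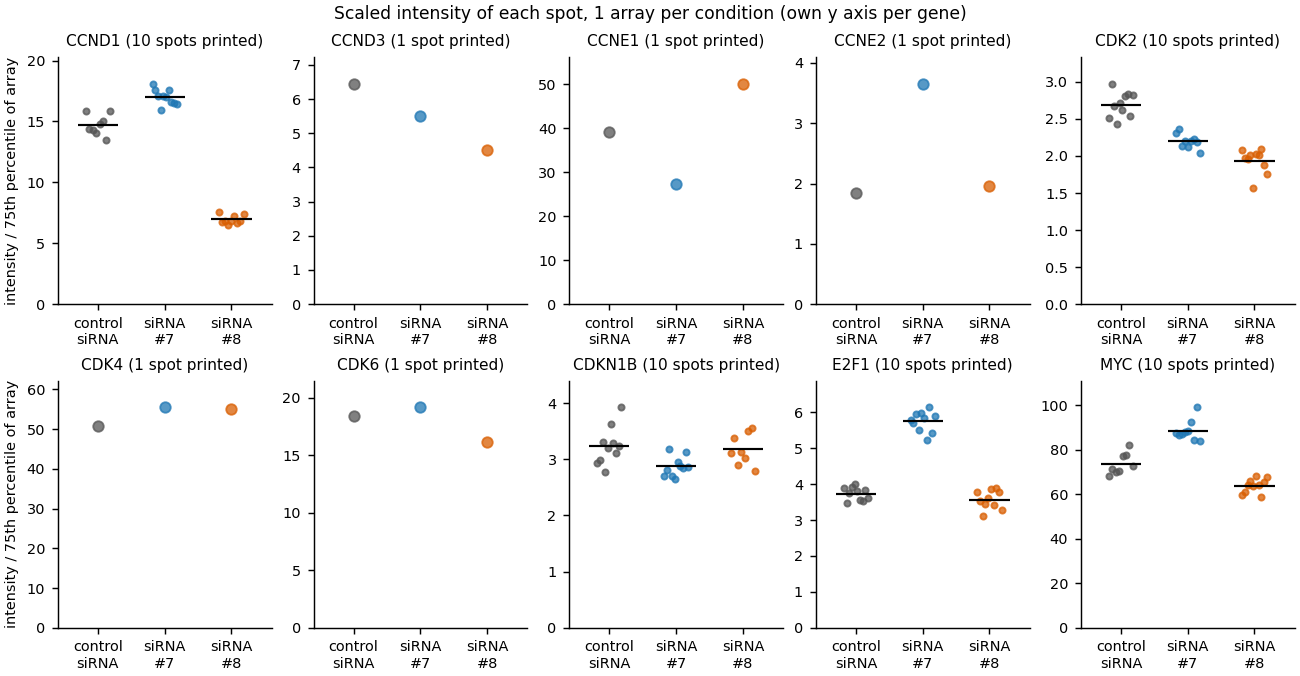
Scaled intensity (intensity divided by the 75th percentile of the array, linear axes from 0, a separate axis for each gene) of every usable spot of the probe used for each gene, on the control siRNA (grey), siRNA #7 (blue) and siRNA #8 (orange) arrays, with a bar at the mean where a probe has several spots. The spots of *CCND1* lie between 6.49 and 7.54 with siRNA #8, below all of those on the other arrays, and the spots of *E2F1* and *MYC* are highest with siRNA #7.

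The E-type cyclins, which activate CDK2 at the end of G1, did not run in parallel. The scaled intensity of *CCNE1* was 39.2 in control cells, 27.3 after siRNA #7 and 50.2 after siRNA #8, so that the siRNA arrays lay on opposite sides of the control. Against the control its log2 ratio came to -0.52 with siRNA #7 (spot SD 0.14) and 0.35 with siRNA #8 (spot SD 0.15). Its probe has 1 spot, in column 23 of the 164 columns of the array, and the 13 passing spots around it had a median shift of -0.39 with siRNA #7 and -0.22 with siRNA #8. With that shift removed, the ratio of *CCNE1* came to -0.12 with siRNA #7 and 0.59 with siRNA #8. The difference between the siRNAs was less affected, at 0.88 as measured and 0.71 after the removal.

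*CCNE2* showed the opposite order. The brighter of its probes had scaled intensities of 1.84 in control cells, 3.66 after siRNA #7 and 1.96 after siRNA #8, and the siRNA #7 array alone stood apart. Against the control the log2 ratio came to 0.99 with siRNA #7 (spot SD 0.23), just short of 2-fold, and 0.09 with siRNA #8 (spot SD 0.26). The dimmer probe, at intensities of 9.48, 14.0 and 9.63 on the same arrays, gave 0.89 and 0.33 with SDs of 0.40 and 0.41. The brighter probe sits in row 384, the last of the array, and with the shift of its 6 passing neighbours removed its ratio was 1.19 with siRNA #7 and -0.15 with siRNA #8. Both probes place *CCNE2* higher with siRNA #7 than with siRNA #8, by log2 ratios of siRNA #8 to siRNA #7 of -0.90 and -0.57, the latter within 2 spot SDs (SD 0.38) of 0.

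Among the kinases, *CDK2*, the partner of cyclin E, was lower with both siRNAs than with control siRNA. Its 10 control spots ran from 2.43 to 2.98, its 9 spots with siRNA #7 from 2.05 to 2.36 and its 10 spots with siRNA #8 from 1.56 to 2.09. The control range lay above both others, which overlapped with each other. Against the control the log2 ratios came to -0.29 with siRNA #7 (spot SD 0.035) and -0.48 with siRNA #8 (spot SD 0.050), a 1.22-fold and a 1.39-fold difference, and they stayed negative under all 10 alternatives. Both are modest against the whole array, at the 20.2 and 13.9 percentiles of all genes.

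*CDK4*, the main partner of cyclin D1 in epithelial cells, was nearly flat, with scaled intensities of 50.7 in control cells, 55.5 after siRNA #7 and 55.0 after siRNA #8. Its log2 ratios of 0.13 and 0.12 lay within 1 spot SD (0.14 and 0.15), and both turned negative with spike-in scaling and under normexp. The ratio with siRNA #7 also came to -0.03 after removal of neighbouring spots. *CDK6*, the second kinase that D-type cyclins activate, had scaled intensities of 18.4, 19.2 and 16.2 in the same order. Its log2 ratios of 0.06 and -0.19 were within 2 spot SDs of 0 (0.15 and 0.17). The first turned negative under the median of each array, spike-in scaling and normexp, and the second came to 0.03 after removal of neighbouring spots. A ratio of 0 on these arrays is the typical gene, not a fixed amount of RNA: with scaling on the spike-in controls the median ratio of all genes shifted by -0.28 for siRNA #7 and by -0.19 for siRNA #8.

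The inhibitor *CDKN1B* overlapped on all 3 arrays. Its 10 control spots ran from 2.78 to 3.93 in scaled intensity, its 10 spots with siRNA #7 from 2.65 to 3.18 and its 8 spots with siRNA #8 from 2.80 to 3.56. Against the control the log2 ratio came to -0.17 with siRNA #7 (spot SD 0.054) and -0.03 with siRNA #8 (spot SD 0.065). A second probe on 1 spot gave 0.09 and -0.06 with SDs of 0.16 and 0.18, so its sign with siRNA #7 was opposite to that of the probe with 10 spots. The p27 protein is controlled largely through its degradation, which these arrays do not measure.

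*E2F1*, the activator released from the retinoblastoma protein, was higher with siRNA #7. Its 10 spots ran from 3.47 to 3.99 with control siRNA, from 5.22 to 6.15 with siRNA #7 and from 3.12 to 3.90 with siRNA #8. The siRNA #7 spots lay above all others, while the control and siRNA #8 spots overlapped. Against the control the log2 ratio came to 0.62 with siRNA #7 (1.54-fold, spot SD 0.032) and -0.07 with siRNA #8 (spot SD 0.040). The ratio with siRNA #7 was at the 93.4 percentile of all genes and stayed between 0.35 and 0.63 under the alternatives. Between the siRNAs *E2F1* was 1.61-fold lower with siRNA #8 (log2 ratio -0.69, spot SD 0.040).

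*E2F1* is known to be a target of E2F factors itself, and its promoter is shown for that reason beside a promoter with MYC-type sites. RefSeq windows of GRCh38.p14, from 250 bases before to 50 bases after a transcription start, were searched for 9 starts of the 6 genes listed in that table. The words searched on both strands were TTTCCCGC, TTTCGCGC, TTTGCCGC and TTTGGCGC for E2F, and the E-box CACGTG for MYC and its relatives, which reads alike on both strands. An E2F word was found in 1 of the 9 windows, that of *E2F1*, and in 3.31% of all 35116 windows. The *E2F1* window, chr20:33686336-33686635 on the minus strand, holds 2 such words in capitals, which start 33 and 20 bases before the transcription start. The *CDK4* window, chr12:57752261-57752560 on the minus strand, holds 3 E-boxes in capitals, and an E-box was found in 7.26% of all windows. A window of *CDK6* held 1 E-box, and those of *CCND3*, *CCNE1* and *CDKN1B* held neither word.
*E2F1*: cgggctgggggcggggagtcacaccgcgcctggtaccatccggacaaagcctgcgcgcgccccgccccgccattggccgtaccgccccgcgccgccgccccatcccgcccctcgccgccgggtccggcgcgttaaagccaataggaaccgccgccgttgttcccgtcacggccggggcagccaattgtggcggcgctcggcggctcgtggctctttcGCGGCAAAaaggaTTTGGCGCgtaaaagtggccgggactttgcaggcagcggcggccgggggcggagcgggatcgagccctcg
*CDK4*: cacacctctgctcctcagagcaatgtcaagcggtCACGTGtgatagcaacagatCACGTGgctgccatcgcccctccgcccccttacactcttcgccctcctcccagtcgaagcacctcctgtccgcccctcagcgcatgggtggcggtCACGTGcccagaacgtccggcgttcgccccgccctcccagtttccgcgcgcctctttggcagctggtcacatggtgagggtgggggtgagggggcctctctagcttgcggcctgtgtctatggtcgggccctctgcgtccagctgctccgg
These matches are letters in a window and were not tested as binding sites.

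*MYC* had a scaled intensity of 68.4 to 82.1 over 8 control spots, of 83.8 to 99.2 over 9 spots with siRNA #7 and of 58.8 to 68.3 over 10 spots with siRNA #8. The ranges did not overlap, with siRNA #7 highest and siRNA #8 lowest, though those of control siRNA and siRNA #8 all but met. The differences were small, with log2 ratios of 0.26 with siRNA #7 (spot SD 0.040) and -0.21 with siRNA #8 (spot SD 0.039). The first turned to -0.01 with spike-in scaling, and the second stayed negative under all 10 alternatives. Between the siRNAs, *MYC* was 1.39-fold lower with siRNA #8 (log2 ratio -0.47), between -0.50 and -0.39 under the alternatives.

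**Figure D2:**
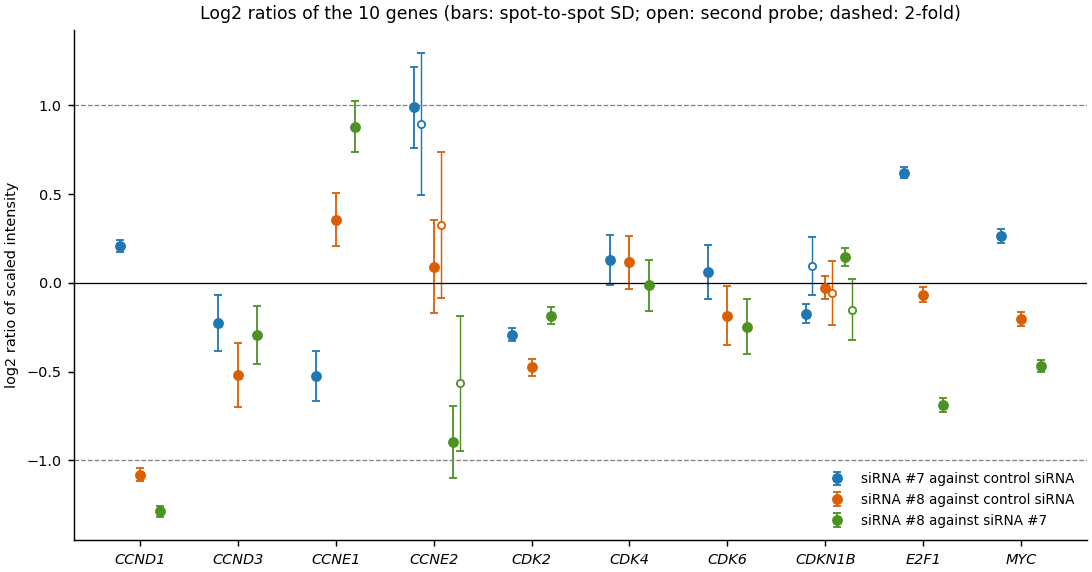
Log2 ratio of scaled intensity for each of the 10 genes, siRNA #7 against control siRNA (blue), siRNA #8 against control siRNA (orange) and siRNA #8 against siRNA #7 (green), with bars of 1 spot-to-spot SD, open points for the second probes of *CCNE2* and *CDKN1B*, and dashed lines at 2-fold. The SD is that of the mean where a probe has 10 spots and that of 1 spot otherwise. *CCND1* passes the lower line with siRNA #8 against control siRNA and against siRNA #7, and *CCNE2* with siRNA #7 lies just below the upper line.

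Counted over the set, no gene was at least 2-fold from control siRNA with siRNA #7, where 3.77% of all 12031 genes were. With siRNA #8, *CCND1* was at least 2-fold lower, 1 of 10 genes against 3.03% of all genes, and none was at least 2-fold higher (1.95% of all genes). At 1.5-fold, *CCNE2* and *E2F1* were higher with siRNA #7 (7.56% of all genes) and *CCND1* was lower with siRNA #8 (10.2% of all genes). *E2F1* fell below 1.5-fold with siRNA #7 under the median of each array, spike-in scaling and normexp. With siRNA #7, 6 genes were higher and 4 lower than with control siRNA, where 51.6% of all genes were higher. That split turned to 2 higher and 8 lower with spike-in scaling, where 77.7% of all genes were lower, and to 3 and 7 under normexp, where 59.7% were. With siRNA #8, 3 were higher and 7 lower, where 49.2% of all genes were lower. Under the alternatives 6 to 9 were lower. The 9 came with spike-in scaling, where 69.3% of all genes were lower, and under normexp, where 58.8% were. Over the 10 genes the median log2 ratio came to 0.10 in siRNA #7-treated and -0.13 in siRNA #8-treated cells, beside 0.02 and 0.01 over all genes.

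The siRNAs were also compared with each other directly, without the control array. Of the 10 genes, 8 were lower with siRNA #8 than with siRNA #7, where 51.2% of all genes were. *CCND1* was at least 2-fold lower with siRNA #8 (3.36% of all genes). *CCND1*, *CCNE2* and *E2F1* were at least 1.5-fold lower (11.6% of all genes) and *CCNE1* at least 1.5-fold higher (8.89% of all genes). The median log2 ratio of the 10 genes was -0.27, beside -0.01 over all genes. *CDK4*, with -0.02, was the closest to 0, and turned positive under 4 of the alternatives. The number lower ran from 7 to 9 of the 10 genes under the alternatives, and the share of all genes lower from 42.9% to 56.5%.

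When both siRNA arrays were joined as 1 silenced group in limma, no gene of the set passed. The adjusted p of each of the 10 genes was 0.9998 (limma, Benjamini-Hochberg over 18121 probes), with joined log2 ratios from -0.44 for *CCND1* to 0.54 for *CCNE2*. In that fit 0.011% of all probes, 2 in number, had an adjusted p below 0.05, and 3.66% had an unadjusted p below 0.05, among which no gene of the set. The fit takes the spread between siRNA #7 and siRNA #8 as its error and assumes that the single control array varies alike.

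Genes around the set were described through 4 lists. Of 50 genes of the G1/S machinery, 47 had a passing probe, and their median log2 ratio came to -0.01 for siRNA #7 and -0.02 for siRNA #8, near the median of all genes. These medians turned positive under 1 and 2 of the alternatives. None of the 47 was at least 2-fold from control siRNA with siRNA #7, where 3.77% of all genes were. With siRNA #8, 5 of the 47 were at least 2-fold lower, beside 3.03% of all genes, and none at least 2-fold higher, beside 1.95%. The number lower ran from 3 to 7 under the alternatives, with 7 under spike-in scaling. The 5 included *PKMYT1* (log2 ratio -1.13, spot SD 0.15), which phosphorylates CDK1, and *LIN54* (-1.11, SD 0.26), a DNA-binding subunit of the DREAM and MuvB complexes. *CDKN3* (-1.09, SD 0.17), a phosphatase that acts on CDKs, was a further one. The others, named after their values were seen, were *CCNA2* (-1.08), the S phase cyclin, and *CDKN2C* (-1.07), an inhibitor of CDK4 and CDK6. The highest ratios with siRNA #8 were those of *E2F5* (0.88, from 1 dim spot with an SD of 0.35), a repressive E2F factor, *CABLES1* (0.69), a CDK-binding protein, and *DDB1* (0.63), an adaptor of CUL4 ubiquitin ligases. *CDKN1A*, the p21 inhibitor named here for its role, had 0.71 with siRNA #7 and 0.02 with siRNA #8.

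The listed targets of E2F lay lower as a group with siRNA #8. All 45 listed targets had a passing probe, and all 45 were lower with siRNA #8 than with control siRNA, where 49.2% of all genes were, at a median log2 ratio of -0.62. At least 2-fold lower with siRNA #8 were 9 of them, against 3.03% of all genes. Under the alternatives 8 to 17 were, the 17 with spike-in scaling, which moves every ratio with siRNA #8 by -0.19. Of the 9, *CDC6*, the origin licensing factor, had a log2 ratio of -1.46 (from 1 dim spot with an SD of 0.41). *CDC45*, part of the replicative helicase, had -1.33 (SD 0.16). The least affected were *GINS1* (-0.13), also part of that helicase, and *RFC3* (-0.23), a clamp loader subunit. With siRNA #7 the median was -0.11, and 30 of the 45 were lower, where 48.4% of all genes were. *CDC6* alone (-1.12, from 1 dim spot with an SD of 0.40) was at least 2-fold lower, and none was at least 2-fold higher. Of all genes, 3.77% were past 2-fold in either direction. Under the alternatives 0 to 1 of the 45 were at least 2-fold lower. The median with siRNA #7 moved to -0.38 with spike-in scaling and to -0.22 under normexp, and 29 to 44 were lower under the alternatives. The 44 came with spike-in scaling, where 77.7% of all genes were lower with siRNA #7. The 45 targets were all lower with siRNA #8 under each of the 10 alternatives, with medians from -0.82 to -0.57. The direct comparison of siRNA #8 with siRNA #7 gave a median of -0.52, with 44 lower, where 51.2% of all genes were. The 10 genes were kept off the lists, so the E2F targets *E2F1*, *CCNE1* and *CCNE2* are not among the 45. *E2F1* was not lower to that degree on the siRNA #8 array, with its log2 ratio of -0.07. *CCNE1* was higher there (0.35), and *CCNE2* was near the control (0.09). The list shares 7 genes with the G1/S list, and the lower levels of proliferation genes with siRNA #8 were known when it was drawn up.

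Proteins that bind MYC or regulate it, 24 of 28 listed with a passing probe, had median log2 ratios of 0.08 for siRNA #7 and -0.003 for siRNA #8, whose signs turned under 2 and 3 of the alternatives. *MXD3*, a MAX partner without MYC's activating domain, was the member at least 2-fold lower with siRNA #8 (log2 ratio -1.30), with 0.39 with siRNA #7. *KAT2A* (-0.75), an acetyltransferase that MYC recruits, and *MYCBP* (-0.67), a MYC-binding protein, followed with siRNA #8. The highest there were *MXD4* (0.84, SD 0.26), also a MAX partner, *MLXIPL* (0.40), a glucose-responsive factor, and *SKP2* (0.38), a ubiquitin ligase subunit that acts on p27. The 40 listed MYC targets had medians of 0.08 for siRNA #7 and -0.02 for siRNA #8, whose signs turned under 2 and 1 of the alternatives. With siRNA #8, 22 of them were lower, where 49.2% of all genes were, and 18 to 33 under the alternatives. The 33 came with spike-in scaling, where 69.3% of all genes were lower. The splicing factor gene *SRSF1* (-1.08, from 1 dim spot with an SD of 0.34) was the only one of the 40 at least 2-fold lower with siRNA #8. Under the alternatives 0 to 2 were. *NOP16* (-0.89), a nucleolar protein gene, and *CDC25A* (-0.51), the phosphatase that activates CDK2, followed. At the other end were *EIF4A1* (0.49), a translation helicase, *PES1* (0.46), a ribosome biogenesis factor, and *PHB1* (0.38), a mitochondrial scaffold. With siRNA #7, *EIF4E*, named after its value was seen, was at least 2-fold higher (log2 ratio 2.08, spot SD not reported here).

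**Figure D3:**
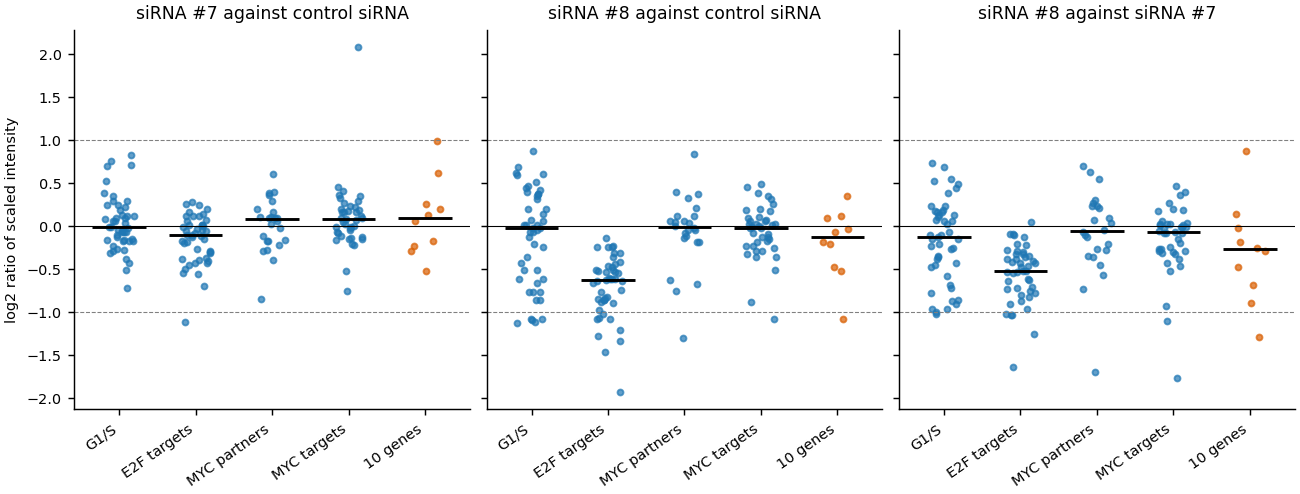
Log2 ratio of scaled intensity (each point 1 gene, bars at the median, dashed lines at 2-fold) for the G1/S, E2F target, MYC partner and MYC target lists in blue and for the 10 genes in orange, in the 3 comparisons. All 45 listed E2F targets lie below 0 with siRNA #8 against control siRNA, while the 10 genes spread from -1.08 to 0.35 there.

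Processing shifted some of these values further than others. Of 300 values of single genes under an alternative, 227 lay within 1 spot SD of the value given and 73 did not. That split mixes both kinds of error. With siRNA #7, scaling on the median of each array shifted every ratio by the same -0.07. It exceeded 1 spot SD for *CCND1*, *CDK2*, *CDKN1B*, *E2F1* and *MYC*, whose error is that of a mean. For the other genes, with the error of 1 spot, it did not. The split thus does not rank genes by how much processing mattered. Part of the 227 could not have come out otherwise. The other filters on dim probes left every ratio of the set unchanged. Averaging probes could move only *CCNE2* and *CDKN1B*, which have a second probe. The deposited values rest on the same scaling and nearly repeat the ratios given. Agreement under these settings is no check, here or where all alternatives are cited. Of the ratios that exceeded 1.5-fold, namely those of *CCND1* with siRNA #8, *CCNE2* and *E2F1* with siRNA #7 and *CCND1*, *CCNE1*, *CCNE2* and *E2F1* between the siRNAs, none changed sign. The largest constant that a scaling added was -0.28, with spike-in scaling and siRNA #7. It is smaller in size than each of these ratios, so settings that add a constant could not have turned a sign.

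**Figure D4:**
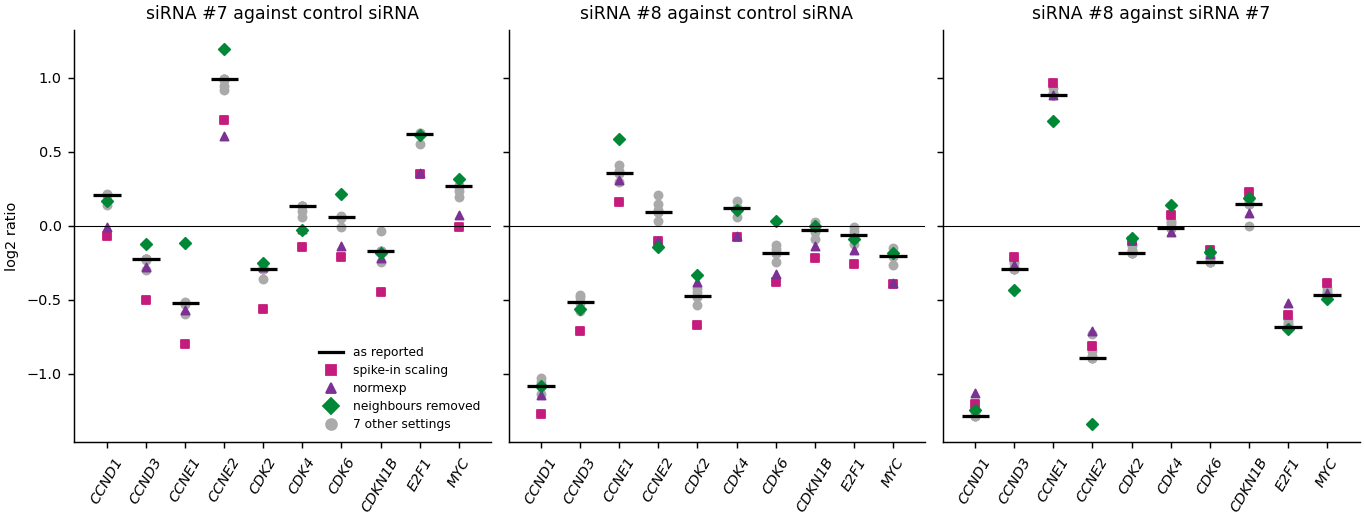
Log2 ratio of each of the 10 genes as reported (black bars) and under 10 other ways of processing (points), with spike-in scaling, normexp background correction and the removal of neighbouring spots drawn apart, in the 3 comparisons. *CCNE1* with siRNA #7 moves from -0.52 to -0.12 when neighbouring spots are removed, and *CCND1* with siRNA #8 stays at or below -1.03.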

How the data were processed

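The 3 arrays, 1 per condition, were analysed. Per the file headers, the authors extracted spot intensities with Agilent Feature Extraction 11.5.1.1, which subtracts the background, and left them unscaled between arrays. A further deposited table, made by the authors in GeneSpring, holds log2 values for 21189 probes. Differences between arrays in it equal those of log2 intensity (slope 1.000) after the shift of the 75th percentile, with each probe centred on its median over the arrays, and the median of every column is 0.000. Scale and direction are thus known, and its centring removes levels. The arrays are positions of 1 slide scanned together.

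Calculations used Python 3.11.15, pandas 2.3.3, numpy 2.4.6 and matplotlib 3.10.9. Outlier-flagged spots (313 to 413 gene spots per array) were dropped, and the mean over a probe's spots was divided by the 75th percentile of all gene probes. To pass, a probe had to reach the 20th percentile on 2 or more arrays and to be flagged well above background on all 3, by 50% or more of its spots. The brightest passing probe stood for a gene. Transcript accessions, stripped of versions, were looked up in RefSeq (GRCh38.p14), which named 30000 of 50593 probes. The spot-to-spot SD came from the gene's own spots where 10 were printed (as the SD of their mean), and otherwise from 603 to 620 probes printed 10 times, pooled in 6 ranges of signal. No p-value is given between single arrays. The alternatives were the array median, quantile normalization, the 75th percentile over detected probes, 8 of the 10 E1A spike-in probes, the deposited log2 values, normexp with an offset of 50 on median spot signals (limma 3.58.1, R 4.3.3), the mean of a gene's probes, other filters on dim probes, removal of the median deviation of spots within 3 rows and 3 columns, a 1.5-fold threshold, and limma with both siRNA arrays as 1 group. The steps were tested on simulated data. The genes and lists were chosen with earlier results of these data known. The named genes are the 10 genes, list genes at least 2-fold from control siRNA with both siRNAs, and the 3 highest and 3 lowest of each list with siRNA #8. Genes that this rule names but the text does not are not reported here. Where another gene is named, the text says why.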

Additional observations from a re-analysis of the deposited data

How the results depend on the processing

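With 1 array per condition no array could be left out, and no paired analysis was possible because the groups share no 2 replicate numbers. Depth is not at issue for arrays, but the dim *CCNE2* probe and the single spots limit what can be read. The median log2 ratio of the 10 genes with siRNA #7 turned from 0.10 to -0.18 with spike-in scaling and to -0.08 under normexp. With siRNA #8 it went from -0.13 to -0.32 and to -0.24 under these. Spike-in scaling adds the same constant to each ratio of a pair of arrays, and the cause of the normexp change was not tested. At 1.5-fold in place of 2-fold, 2 genes were higher with siRNA #7 (7.56% of all genes). Between the siRNAs, 1 was higher (8.89% of all genes) and 3 were lower (11.6% of all genes) with siRNA #8. With removal of neighbouring spots, 1 gene (*CCNE2*) was at least 2-fold higher with siRNA #7, and 2 (*CCND1* and *CCNE2*) were at least 2-fold lower with siRNA #8 than with siRNA #7. The other medians of the 10 genes moved by less than 1 spot-to-spot SD, and the other counts of genes at least 2-fold from control siRNA, or between the siRNAs, were the same. Under the other filters on dim probes they could not differ, since every ratio of the set stayed unchanged. The split into higher and lower genes did depend on the scaling. With siRNA #7, 4 genes were lower as reported, 8 with spike-in scaling (77.7% of all genes) and 7 under normexp (59.7%). With siRNA #8, 7 were lower as reported and 9 with spike-in scaling (69.3% of all genes) and under normexp (58.8%). Past 1.5-fold, 1 gene was higher with siRNA #7 under spike-in scaling, normexp and the median of each array, and 3 were lower with siRNA #8 under spike-in scaling. *CCNE1* came to be 1.5-fold lower with siRNA #7 under the median of each array (-0.60) and spike-in scaling (-0.80). It came to be 1.5-fold higher with siRNA #8 after removal of neighbouring spots (0.59). Between the siRNAs, 2 genes were 1.5-fold lower with siRNA #8 under normexp. The shares of all genes past 1.5-fold or 2-fold under these other settings are not reported here, so these counts cannot be set against them. The limma ratios are the mean of both siRNA ratios by construction, so that fit is no check on the ratio with either siRNA. For *CCND1* it gave -0.44, beside -1.08 with siRNA #8 and 0.21 with siRNA #7.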
